A study of Homo sapiens with 21 samples.

Results

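RP11-390F4.3 (ENSG00000225489) is a long non-coding RNA gene on chromosome 9 that shares an exon with the histone demethylase gene KDM4C. The 5 genes described here are this lncRNA and 4 neighbours, KDM4C, GLDC, UHRF2 and RANBP6, chosen by their position on chromosome 9 from 5.7 to 7.2 Mb (GRCh37) among the 20970 genes listed in 4 expression tables. Of 35 genes annotated in this window, 16 had a row in at least 1 table and 10 had a row in all 4 tables. The comparisons ask whether the lncRNA changed together with KDM4C, together with the other neighbours, or by a different amount.

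The tables hold 21 RNA-seq libraries from 2 human cancer cell lines, FADU from a hypopharyngeal squamous carcinoma and BFTC909 from an upper tract urothelial carcinoma. In each line, 2 libraries came from cells with a scrambled siRNA (Scr-si) in normoxia (18% O2), 2 from Scr-si cells in hypoxia (1% O2 for 18 h), and 2 from cells with an siRNA against the DNA methyltransferase METTL4 (METTL4-si) in hypoxia. Another table holds 2 libraries each of normoxic FADU cells that carry a control vector, a METTL4 expression vector (METTL4-OE) or an RP11-390F4.3 expression vector (RP11-390F4.3-OE), all as stably transfected cells. The last table holds 1 library of CRISPR control FADU cells and 1 library from each of 2 single-cell-derived clones with a prime-edited catalytic motif of METTL4, all in hypoxia. The sources do not state whether libraries of a group came from separate cultures, so p-values measure only the spread between these libraries, which may be technical.

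The lncRNA and KDM4C lie on the plus strand. RP11-390F4.3 spans chr9:6716157-6727438 in 6 annotated transcripts, and KDM4C spans chr9:6720863-7175648 in 15. Both genes have an identical exon of 135 bases at chr9:6720863-6720997, which belongs to 3 of the 6 lncRNA transcripts and to 1 of the 15 KDM4C transcripts, ENST00000536108, as its first exon. The other KDM4C transcripts start at position 6757641 or farther downstream. The shared bases are a small part of the exon unions of 3177 bases (lncRNA) and 10323 bases (KDM4C). Of the other neighbours, GLDC (chr9:6532467-6645729, minus strand) ends 70.4 kb from the lncRNA, UHRF2 (chr9:6413151-6507054, plus strand) 209 kb and RANBP6 (chr9:6011025-6015625, minus strand) 701 kb away.

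As background, hypoxia-inducible factors (HIFs) are transcription factors that are stabilized when oxygen is low and bind DNA at hypoxia response elements. The study gives ACGTG for the element it tested, and only this form was searched here. METTL4 is a methyltransferase that the study examines as the enzyme placing N6-methyladenine (6mA) on nuclear DNA. KDM4C removes methyl groups from lysine 9 of histone H3 and needs oxygen as a cosubstrate, GLDC is the glycine decarboxylase of the mitochondrial glycine cleavage system, UHRF2 is a ubiquitin ligase that binds modified DNA and histones, and RANBP6 is a member of the importin beta family of nuclear transport receptors.

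The sequence upstream of the lncRNA is shown because the study tested the 6mA site and a hypoxia response element in it. These are the 250 bases before the start of transcript ENST00000615168 at position 6716495, on the plus strand of GRCh37 (chr9:6716245-6716494), with the 6mA site ACTTCCGA and every match to ACGTG or its reverse complement in capitals.
RP11-390F4.3: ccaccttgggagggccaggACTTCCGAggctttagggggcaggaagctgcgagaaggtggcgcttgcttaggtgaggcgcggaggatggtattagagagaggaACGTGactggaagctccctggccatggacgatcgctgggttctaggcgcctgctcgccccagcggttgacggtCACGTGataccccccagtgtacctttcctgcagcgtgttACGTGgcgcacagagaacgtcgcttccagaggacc
Counted back from the start site, ACTTCCGA lies at -231 to -224 and ACGTG at -147 to -143, at -73 to -69 and at -35 to -31. The second of these is part of the palindrome CACGTG, so it also matches on the minus strand, which gives 4 matches over both strands. The stretch lies inside the annotated span of the gene, since transcripts ENST00000666851 and ENST00000687821 start before it, at 6716157 and 6716176.

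KDM4C has its own matches before 1 of its annotated start sites, 6757973 (transcript ENST00000381309). They are 2 palindromes, at -63 to -58 and at -31 to -26, shown with 30 bases each and the palindrome in capitals (chr9:6757898-6757927 and chr9:6757930-6757959, plus strand).
KDM4C, upstream palindrome: tgtttgtaagccCACGTGactcaccaagtg
KDM4C, downstream palindrome: ggccccagcggtCACGTGacggcgcgcgcg
The 250 bases before the KDM4C start at the shared exon (6720863) held no match to ACGTG, and which start sites were in use was not measured. Among 35116 RefSeq promoters (GRCh38.p14, 250 bases before to 50 after the start), 21.4% held ACGTG on either strand and 0.487% held ACTTCCGA. In these windows KDM4C had 4 matches to ACGTG and RANBP6 had 1, and UHRF2, GLDC, RIC1 and ERMP1 had 0. A match describes letters only and is no evidence of binding, and a count of 0 covers the form ACGTG alone.

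Reads assigned to genes ranged from 17.8 to 25.4 M per library. Values are TMM-normalized CPM (reads of a gene scaled to library size), in which the authors' trimmed-mean scaling was applied within each table, so levels are compared within a table. METTL4 itself, the targeted gene, had values of 26.6 and 25.3 in hypoxic Scr-si FADU cells and 24.2 and 27.1 in the FADU libraries labelled METTL4-si, a log2 difference of -0.02 ± 0.09 (SE; adjusted p = 0.900). In BFTC909 it was 19.0 and 15.6 against 14.4 and 12.2 (log2 -0.36, adjusted p = 0.0717), and in METTL4-OE cells 158 and 139 against 35.4 and 32.7 with the control vector (log2 2.09). Mean METTL4 values with Scr-si were 31.3 in normoxia and 26.0 in hypoxia in FADU, and 19.8 and 17.3 in BFTC909, where the groups overlapped. The study reported that METTL4 mRNA and protein rose under hypoxia. The 5 known hypoxia genes fixed as a check, CA9, SLC2A1, NDRG1, EGLN3 and ANKRD37, were all called higher in hypoxia and all called lower in the METTL4-si libraries of both lines than in hypoxic Scr-si. Between METTL4-si in hypoxia and Scr-si in normoxia, 0 of the 5 were called in FADU (median log2 -0.01), and 3 were called higher and 1 lower in BFTC909. In both normoxic overexpression groups 5 of 5 were called higher than with the control vector. Squamous markers were high in FADU (summed value 3044 to 5453 in the knockdown libraries). In BFTC909, KRT7, KRT19, UPK2 and UPK3A had no row, KRT8 lay between 2.60 and 7.55 in 5 libraries, and PAX8 (322 to 384) had the highest value of the urothelium list in those 5. That list summed to 343 to 468 in them. A list of fibroblast markers summed to 1013 to 4642 in BFTC909, with COL1A2 highest (805 to 3755). A call needed a change of at least 1.3-fold and an unadjusted limma p below 0.05. These cutoffs follow the original analysis, which used edgeR. Adjusted p-values are by Benjamini-Hochberg over all tested genes. Whether groups overlap is given as a description only, since 2 libraries against 2 can separate without a change.

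Several libraries stood apart from the other library of their group. In FADU, the summed value of 7 luminal breast markers was 108 in Scr-si normoxia replicate 1 and 549 in METTL4-si replicate 1, against 5.90 to 12.1 in the other 4 libraries, with TFF1 at 26.2 and 135 and listed at 0 elsewhere. The fibroblast marker COL3A1 was also raised in these libraries, at 20.3 and 109 against 0 to 0.0447 in the other 4. In BFTC909, METTL4-si replicate 2 had KRT8 at 715 and GATA3 at 128, while GATA3 lay between 0.573 and 0.964 in the other 5 libraries. The luminal breast sum did not set this library apart, at 430 against 314 to 1023 in the other 5. In the overexpression table, RP11-390F4.3-OE replicate 2 had a luminal breast sum of 30.9 against 6.16 to 7.96 elsewhere. Of the tested window genes, partners and check genes, the call of 30 of 31 stayed as it was without both FADU libraries in the comparison of hypoxia with normoxia, of 30 of 31 with METTL4-si and of 28 of 31 for METTL4-si against normoxia. Without the BFTC909 library it stayed for 26 of 28 with METTL4-si and for 24 of 28 against normoxia, and without the RP11-390F4.3-OE library for 29 of 31. Genes whose call changed are given with both values where they are described. In such fits the lone library of a group is assumed to vary like the other groups. Whether these markers take part in the results was not tested.

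RP11-390F4.3 rose under hypoxia in FADU by more than the spread between libraries, and KDM4C rose in the same libraries. The lncRNA had values of 12.01 and 12.3 in normoxia, 31.7 and 31.3 in hypoxia, and 19.0 and 22.2 in hypoxia with METTL4-si. These values rest on 275 to 705 reads per library, and no 2 of the 3 groups overlapped. The change with hypoxia was 1.31 ± 0.10 on the log2(value + 1) scale (SE, 2 libraries a group, adjusted p = 0.000642), or 2.59-fold between the mean values. KDM4C had values of 87.9 and 95.9 in normoxia, 178 and 191 in hypoxia, and 95.2 and 111 with METTL4-si, so that its METTL4-si libraries overlapped those of normoxia. Its change with hypoxia was 1.00 ± 0.09 (adjusted p = 0.00123). Without the libraries with raised breast markers the changes were 1.29 and 0.93, both called. Over all tested genes, 12.4% were called higher and 12.5% lower in hypoxia.

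**Figure D1:**
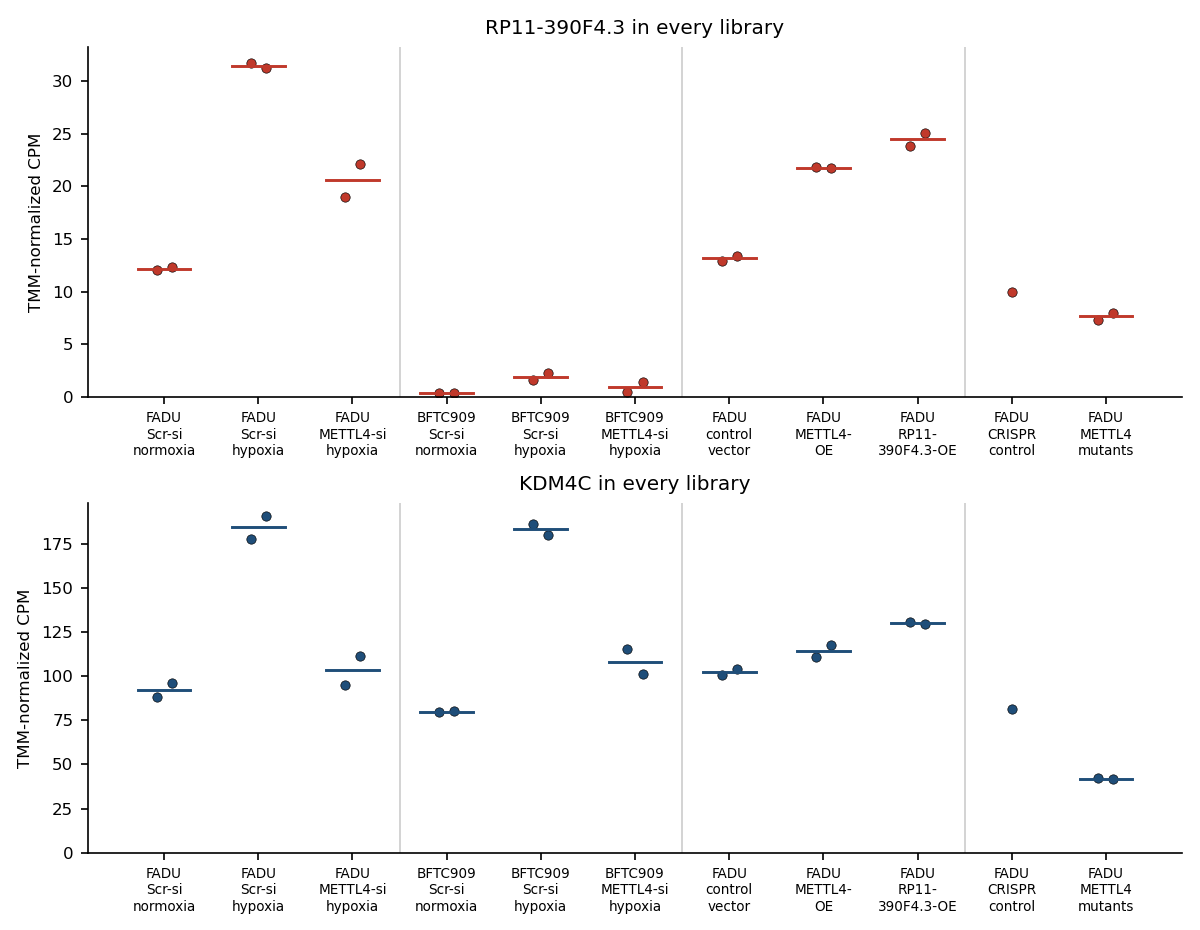
TMM-normalized CPM (vertical axis, from 0) of RP11-390F4.3 and KDM4C in each library by group (horizontal axis). Points are libraries, horizontal lines are group means and vertical lines separate the 4 tables, which were normalized separately. In FADU both genes were higher in the 2 hypoxic Scr-si libraries (31.7 and 31.3 for the lncRNA, 178 and 191 for KDM4C) than in normoxia, and in BFTC909 the lncRNA stayed between 0.336 and 2.25.

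In the hypoxic FADU libraries labelled METTL4-si, both genes were lower than with Scr-si. The lncRNA fell by 0.59 on the log2 scale (SE 0.10, adjusted p = 0.0055) and KDM4C fell by 0.83 (SE 0.09, adjusted p = 0.00135), in a comparison that called 15.2% of genes higher and 16.8% lower. Without the FADU libraries with raised breast markers, the changes were -0.49 and -0.72 and both stayed past the threshold. Against normoxia, with which this comparison shares its METTL4-si libraries, the lncRNA kept a higher level in METTL4-si hypoxia (log2 0.71 ± 0.10, adjusted p = 0.00473), while KDM4C had a log2 difference of 0.16 with a 95% interval from -0.06 to 0.39 (adjusted p = 0.237), and of 0.21 without the libraries with raised breast markers, still under 1.3-fold. In that comparison 12.1% of genes were called higher and 15.2% lower.

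The difference between the lncRNA and KDM4C was tested within libraries, on the log2 value of each gene minus that of KDM4C in the same library. The lncRNA amounted to 13.7% and 12.8% of the KDM4C value in FADU normoxia, 17.8% and 16.4% in hypoxia, and 19.9% in both METTL4-si libraries. Each hypoxic Scr-si library thus lay above both normoxic ones. The CRISPR control library, also of hypoxic FADU cells but in another table, had 12.3%. The lncRNA rose by 0.31 more than KDM4C under hypoxia (95% interval 0.02 to 0.60, adjusted p = 0.0415). This call ended at a pseudocount of 5, with a difference of 0.12, and when any 1 of the 4 compared libraries was left out (0.36 and 0.26 without Scr-si normoxia replicates 1 and 2, 0.25 and 0.37 without Scr-si hypoxia replicates 1 and 2). It was 0.36 (adjusted p = 0.0114) without both libraries with raised breast markers. Since 91.8% of all genes differed from KDM4C in this comparison at an adjusted p under 0.05, a difference from KDM4C was the rule among genes here.

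With METTL4-si the lncRNA and KDM4C were not shown to differ in FADU (0.24, 95% interval -0.05 to 0.52, adjusted p = 0.0996, and 0.29 and called at a pseudocount of 5), where 85.5% of genes differed from KDM4C. Between METTL4-si in hypoxia and Scr-si in normoxia the difference was 0.55 (95% interval 0.26 to 0.83, adjusted p = 0.0239), against 19.4% of all genes. That last difference no longer passed without Scr-si normoxia replicate 1 (0.59) or 2 (0.50), without Scr-si hypoxia replicate 1 (0.55) or 2 (0.55), or with the 2 compared groups alone (0.55). An exact permutation test of the per-library difference cannot give a p below 0.333 with 2 libraries against 2, and gave 0.333 for each of the 3 FADU comparisons.

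**Figure D2:**
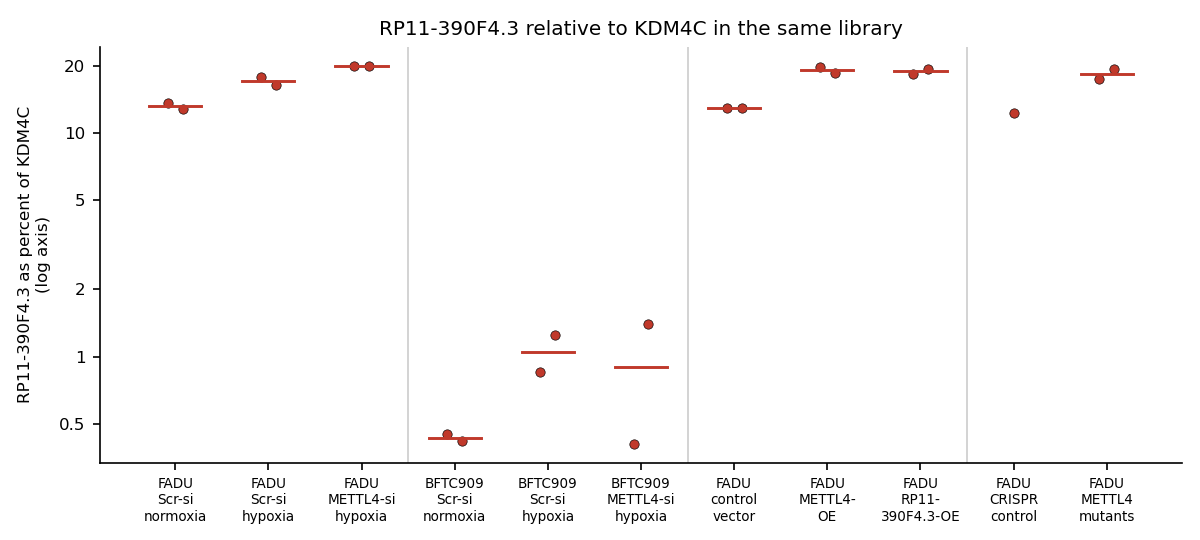
RP11-390F4.3 as a percent of the KDM4C value of the same library (vertical log axis) by group (horizontal axis), with points for libraries and lines for group means. In the FADU tables the share lay at 12.3% to 13.7% in normoxic Scr-si and control vector cells and in the hypoxic CRISPR control library. The other FADU groups, among them hypoxic Scr-si, lay at 16.4% to 19.9%, and BFTC909 lay between 0.407% and 1.39%.

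In BFTC909 the lncRNA was close to the limit of what these libraries can count, while KDM4C had about the values it had in FADU, as far as tables normalized separately can be set side by side. The lncRNA had 8 reads in each normoxic library (values 0.358 and 0.336), 33 and 47 reads in hypoxia (1.59 and 2.25), and 10 and 28 reads with METTL4-si (0.469 and 1.41). A count of 8 reads has an exact 95% Poisson interval from 3.45 to 15.8 reads, which covers counting error only. The gene passed the filter on low values only through the groups where it was higher, so its presence among the tested genes is no support for a difference. The hypoxic libraries lay above all others, and the 2 METTL4-si libraries stood between both groups and far apart from each other. KDM4C had values of 79.5 and 80.4 in normoxia, 186 and 180.0 in hypoxia, and 115 and 101.2 with METTL4-si, with no overlap between groups.

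Both genes were called higher in hypoxic BFTC909 cells, where 19.5% of genes were called higher and 19.2% lower. The log2 change was 1.11 ± 0.24 (adjusted p = 0.00877) for the lncRNA and 1.19 ± 0.08 (adjusted p = 5.19e-05) for KDM4C. Without any filter on low values the lncRNA had the same change with an adjusted p of 0.00913. At this level the log2(value + 1) scale understates the lncRNA: its mean value was 5.53-fold higher in hypoxia, and edgeR on the whole reads gave a log2 change of 2.45. With METTL4-si, KDM4C fell by 0.76 (adjusted p = 0.000527, and by 0.66 without METTL4-si replicate 2), and the lncRNA was called lower (log2 -0.62 ± 0.24, unadjusted p = 0.0365) with an adjusted p of 0.0903, among 15.7% of genes called higher and 12.9% lower. The lncRNA value depended on 1 METTL4-si library: it was -0.27 without replicate 1, past no threshold, and -0.98 without replicate 2, the library with raised KRT8 and GATA3 (adjusted p = 0.00116). The call also ended without Scr-si normoxia replicate 1 or 2 (-0.62 each) and without Scr-si hypoxia replicate 2 (-0.46).

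Against normoxia, METTL4-si hypoxia in BFTC909 had KDM4C higher by 0.43 (adjusted p = 0.00258, and 0.34, under 1.3-fold, without METTL4-si replicate 1) and the lncRNA by 0.48, which was not past the threshold (95% interval -0.09 to 1.05, adjusted p = 0.129). This comparison called 25.6% of genes higher and 23.7% lower. Without METTL4-si replicate 2 the lncRNA difference was 0.13, and without replicate 1 it was 0.84 and past the threshold.

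On the log2(value + 1) scale, no difference between the change of the lncRNA and that of KDM4C was detectable at this depth in BFTC909. The lncRNA was 0.450% and 0.417% of the KDM4C value in normoxia, 0.854% and 1.25% in hypoxia, and 0.407% and 1.39% with METTL4-si. The log2 differences were -0.08 (95% interval -0.81 to 0.65) with hypoxia, 0.13 (-0.60 to 0.86) with METTL4-si and 0.05 (-0.68 to 0.78) between METTL4-si hypoxia and normoxia, with adjusted p-values of 0.806, 0.685 and 0.892. Of all genes, 93.5%, 89.8% and 61.6% differed from KDM4C in these comparisons. The sign with hypoxia depended on the pseudocount, at 0.96 with a pseudocount of 0.1, -0.78 with 5 and 1.27 with edgeR on whole reads, and it was called at 5. With METTL4-si the difference was called without METTL4-si replicate 1 (0.58) and at a pseudocount of 5 (0.51), and was -0.32 without replicate 2 and -0.05 without Scr-si hypoxia replicate 1. Between METTL4-si hypoxia and normoxia it was called without METTL4-si replicate 1 (0.50), and it was -0.40 without replicate 2. Exact permutation of the per-library differences on the log2(value + 1) scale gave a p of 1.0 in all 3 comparisons. The added 1 exceeds the normoxic values of the lncRNA, so this p does not show an equal change. As plain shares of KDM4C, both hypoxic Scr-si libraries lay above both normoxic ones.

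In normoxic FADU cells with stable vectors, the lncRNA rose clearly and KDM4C by less than the 1.3-fold limit. RP11-390F4.3 had values of 12.9 and 13.4 with the control vector, 21.8 and 21.7 in METTL4-OE and 23.9 and 25.1 in RP11-390F4.3-OE. KDM4C had 100.4 and 104 with the control vector, 111 and 117 in METTL4-OE and 131 and 129 in RP11-390F4.3-OE. Neither gene had an overlap between the control and either overexpressing group. With METTL4-OE the log2 change was 0.68 ± 0.08 (adjusted p = 8.62e-06) for the lncRNA and 0.16 ± 0.05 (adjusted p = 0.0165) for KDM4C, while 8.3% of genes were called higher and 11.1% lower. With RP11-390F4.3-OE it was 0.85 ± 0.08 (adjusted p = 7.11e-07) for the lncRNA and 0.35 ± 0.05 (adjusted p = 4.12e-05) for KDM4C, while 16.8% were called higher and 12.8% lower. The transcript placed in the lncRNA vector, and whether it holds the shared exon, is not given in the sources used here, and reads from the vector and from the chromosomal gene cannot be told apart.

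The rise of the lncRNA exceeded that of KDM4C in both overexpression comparisons. Its share of the KDM4C value was 12.9% in both control libraries, 19.7% and 18.5% in METTL4-OE and 18.3% and 19.4% in RP11-390F4.3-OE. The difference in log2 change was 0.52 (95% interval 0.34 to 0.71, adjusted p = 0.000139) with METTL4-OE and 0.50 (0.32 to 0.69, adjusted p = 8.56e-05) with RP11-390F4.3-OE, against 41.5% and 69.3% of all genes that differed from KDM4C. Leaving out any 1 library kept both past the threshold, at 0.48 to 0.57 and 0.46 to 0.54. The 2 comparisons share the control vector libraries, so their values are not independent of each other. With RP11-390F4.3-OE the lncRNA is the gene placed in the vector. Its excess there cannot show whether the chromosomal lncRNA changed apart from KDM4C.

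Counts per length put the lncRNA nearer to KDM4C than the plain values do. Per kb of exon, the mean value of KDM4C was 2.33 times that of the lncRNA in FADU normoxia, 1.80 times in hypoxia and 1.54 times with METTL4-si. It was 2.39 times with the control vector, 1.61 times in METTL4-OE and 1.63 times in RP11-390F4.3-OE. In the hypoxic CRISPR control library it was 2.51 times, and in the METTL4 mutant clones 1.68 times. In BFTC909 the factor was 70.9 in normoxia, 29.4 in hypoxia and 35.5 with METTL4-si. These factors are ratios of levels and use the union of all annotated exons, since the transcripts in use were not measured. With bulk libraries, more cells that express a gene and more RNA per cell cannot be told apart.

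GLDC, the glycine decarboxylase, was called in the direction opposite to the lncRNA with METTL4-si in FADU, with hypoxia in BFTC909 and with METTL4-OE. Both genes were called higher in FADU METTL4-si hypoxia against normoxia (log2 1.35 for GLDC), and both were lower in the mutant clones, without a test. In FADU, GLDC had values of 10.7 and 11.0 in normoxia, 12.2 in both hypoxic libraries, and 25.7 and 33.2 with METTL4-si. Only the METTL4-si libraries were thus far above the others. The log2 change was 0.15 ± 0.13 with hypoxia (adjusted p = 0.431) and 1.20 ± 0.13 with METTL4-si (adjusted p = 0.00116). Without the libraries with raised breast markers, the METTL4-si change was 1.37. GLDC and KDM4C differed by 2.03 (log2) within libraries in this comparison (adjusted p = 0.000215), KDM4C being lower and GLDC higher. Of all genes, 85.5% differed from KDM4C there at an adjusted p under 0.05.

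In BFTC909, GLDC was low and fell under hypoxia, from 3.22 and 3.52 to 1.45 and 1.96 (log2 -0.70 ± 0.16, adjusted p = 0.0113). It stayed at 1.64 and 2.22 with METTL4-si, which overlapped the hypoxic libraries (log2 0.12, adjusted p = 0.625) and was below normoxia (log2 -0.58, adjusted p = 0.0182, and -0.53 and not called without Scr-si normoxia replicate 2). At a pseudocount of 5 both decreases from normoxia, -0.32 and -0.27, were under 1.3-fold. In the overexpression table, GLDC fell from 14.8 and 15.1 to 8.002 and 8.61 with METTL4-OE (log2 -0.78 ± 0.09, adjusted p = 1.4e-05). With RP11-390F4.3-OE it had values of 14.1 and 14.6 (log2 -0.06, 95% interval -0.25 to 0.14).

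The other tested genes of the glycine cleavage system, AMT, GCSH and DLD, and the serine hydroxymethyltransferase SHMT2 were called in several directions. With METTL4-si in FADU, AMT (log2 0.43, adjusted p = 0.0409) and GCSH (log2 0.45, adjusted p = 0.0411) were called higher, and DLD had a log2 change of -0.26 and SHMT2 of -0.35. With METTL4-OE, AMT was called lower (log2 -0.50, adjusted p = 0.019), and the other 3 had log2 changes from -0.01 to 0.13. In hypoxic BFTC909 cells, where GLDC fell, AMT was called higher (0.47) and GCSH lower (-0.52). AMT was also called higher with METTL4-si in BFTC909 (log2 1.03, and 0.94 without METTL4-si replicate 2) and against normoxia (log2 1.502), where GLDC had 0.12 and -0.58. GCSH was called lower in hypoxic FADU (log2 -0.58). Between METTL4-si hypoxia and normoxia in FADU AMT was called higher (0.44) and SHMT2 lower (-0.66), the call of AMT ending without the libraries with raised breast markers (0.40). Against normoxia in BFTC909 DLD was called lower (-0.45), but not without METTL4-si replicate 2 (-0.32).

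UHRF2 was called in 1 of the 8 comparisons with a test and RANBP6 in 0. UHRF2 had 199 and 228 in FADU normoxia, 260 and 254 in hypoxia, and 209 and 256 with METTL4-si. It was not called with hypoxia (log2 0.27, unadjusted p = 0.0494, under 1.3-fold) or with METTL4-si (log2 -0.15). In BFTC909 it had 252 and 249 in normoxia, 324 and 311 in hypoxia (log2 0.34, adjusted p = 0.0502, under 1.3-fold, and 0.41 and called with median centring), and 390 and 296 with METTL4-si, which overlapped the hypoxic libraries. Against normoxia the METTL4-si libraries were called higher (log2 0.44, adjusted p = 0.0159), though not without METTL4-si replicate 1 (0.24). In the overexpression table UHRF2 lay between 213 and 252 in all 6 libraries, with log2 changes of 0.20 and 0.05.

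RANBP6 was called in none of the 8 comparisons, with log2 changes from -0.11 to 0.15 by limma, unadjusted p-values of 0.283 or more, and no call with edgeR on whole reads. It lay between 149 and 189 in the FADU knockdown libraries, between 103 and 141 in BFTC909 and between 148 and 155 in the overexpression table. Its sign with METTL4-si turned without METTL4-si replicate 1 in FADU (0.05) and without METTL4-si replicate 2 in BFTC909 (0.20). The hypoxia changes of UHRF2 and RANBP6 were below that of KDM4C in the same libraries. The log2 differences were -0.73 and -0.85 in FADU and -0.85 and -1.28 in BFTC909, with adjusted p-values from 1.9e-05 to 0.000309. In these comparisons 91.8% (FADU) and 93.5% (BFTC909) of all genes differed from KDM4C at an adjusted p under 0.05. DNMT1, the maintenance DNA methyltransferase that proteins of the UHRF family work with, was called lower in hypoxic FADU (log2 -0.38, and -0.36, under 1.3-fold, without Scr-si normoxia replicate 1 and METTL4-si replicate 1), and the importin IPO5 was called lower in hypoxic BFTC909 (log2 -0.56).

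**Figure D3:**
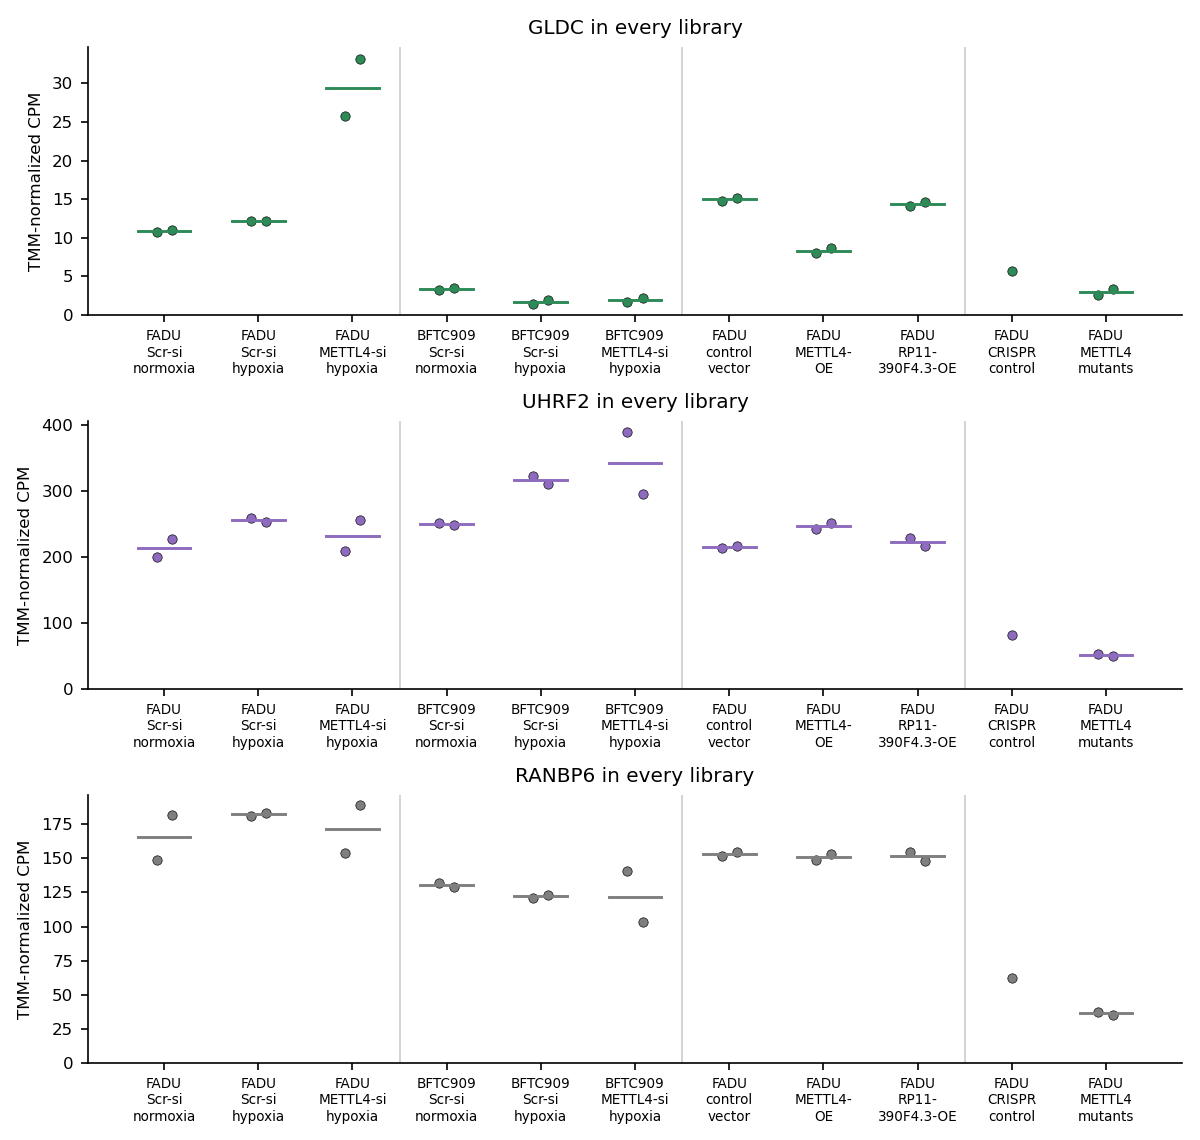
TMM-normalized CPM (vertical axes, from 0) of GLDC, UHRF2 and RANBP6 in each library by group (horizontal axis). Points are libraries, lines are group means and vertical lines separate the 4 tables. GLDC stood at 25.7 and 33.2 in the FADU METTL4-si libraries against 10.7 to 12.2 in the other knockdown libraries of FADU, while RANBP6 lay between 149 and 189 in all 6 of these libraries.

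The other genes of the window fell into several patterns. The 2 tested genes inside the span of KDM4C, the actin pseudogene ACTG1P14 (chr9:6834456-6835577) and the lncRNA ENSG00000224972 (chr9:6902670-6978859), were called in the same direction as KDM4C under hypoxia and with METTL4-si in both lines. Their log2 changes with hypoxia were 0.86 and 0.66 in FADU and 1.18 and 1.28 in BFTC909. Both lie on the strand of KDM4C, had values under 7, and reads from unspliced KDM4C RNA cannot be told apart from theirs. ACTG1P14 is also a copy of an actin gene, so its counts are uncertain. With METTL4-OE and RP11-390F4.3-OE neither was called.

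ENSG00000236924 (chr9:6645812-6694715, plus strand) is an lncRNA that starts 83 bases from the start of GLDC on the other strand, and the pseudogenes RPS3AP54 and RPL35AP20 lie inside its span. Its values in FADU were 3.07 and 4.11 in normoxia, 3.505 and 3.69 in hypoxia, and 4.55 and 5.52 with METTL4-si. With METTL4-si it was called higher (log2 0.39, unadjusted p = 0.0494, adjusted p = 0.109) and RPL35AP20 too (log2 0.78, adjusted p = 0.0172). Without the libraries with raised breast markers these were 0.50 and 0.93, and RPS3AP54 was called as well (0.50 against 0.41). Against normoxia ENSG00000236924 was called higher (0.40), a call that ended without those libraries (0.35). With METTL4-OE, ENSG00000236924 fell by 0.64 (adjusted p = 0.00459), RPS3AP54 by 0.49 and RPL35AP20 by 0.51, in the direction of GLDC.

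At the far end of the window, RIC1, a subunit of a nucleotide exchange factor for RAB6 at the Golgi, 939.6 kb from the lncRNA, rose with hypoxia in FADU (147 and 163 to 285 and 284, log2 0.87, adjusted p = 0.00291) and BFTC909 (log2 0.58, adjusted p = 0.00262). It fell by 0.84 with METTL4-si in FADU and rose with RP11-390F4.3-OE (log2 0.44). ERMP1, an endoplasmic reticulum metallopeptidase that overlaps RIC1 on the other strand, was called higher in hypoxic BFTC909 (log2 0.61, adjusted p = 0.000695), higher with METTL4-si in FADU (log2 0.46) and lower with METTL4-OE (log2 -0.61). KIAA2026 was called in BFTC909, higher with hypoxia (log2 0.49) and lower with METTL4-si (log2 -0.39), the latter ending without METTL4-si replicate 2 (-0.30). Without that library ERMP1 was called higher with METTL4-si in BFTC909 (0.44 against 0.35), and RIC1, ACTG1P14 and ENSG00000224972 were called higher against normoxia (0.45, 0.47 and 0.53, against 0.30, 0.32 and 0.37). In FADU, ERMP1 was called higher against normoxia (0.41 against 0.38) without the libraries with raised breast markers.

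**Figure D4:**
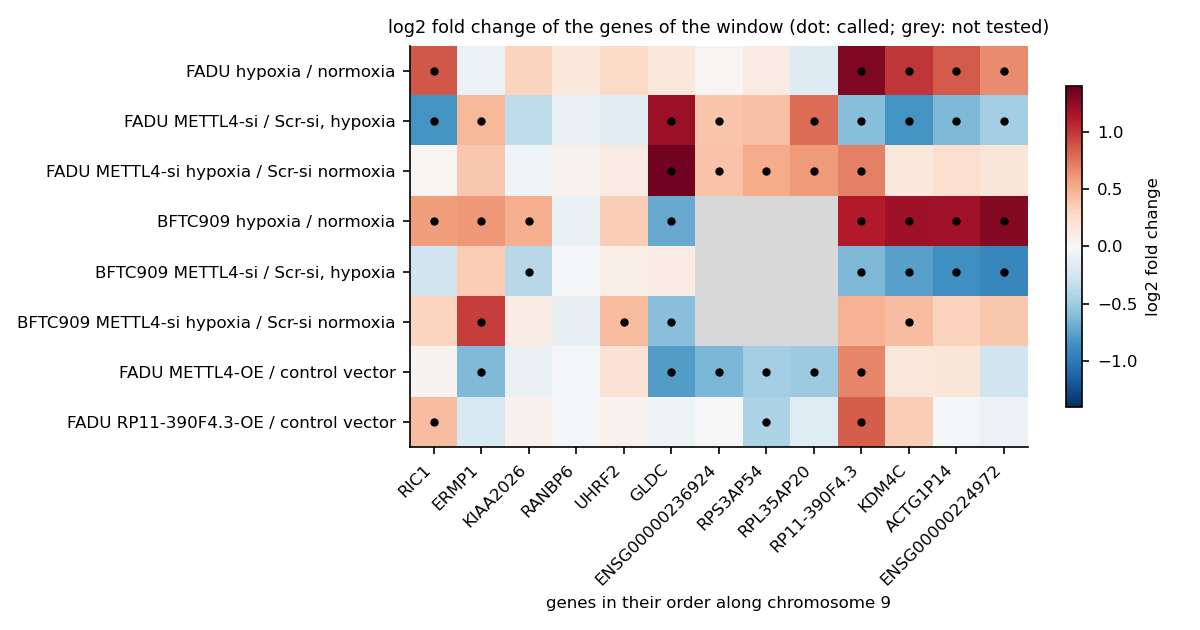
Heat map of the log2 fold change (colour scale) of 13 tested genes of the window, in their order along chromosome 9 (horizontal axis), in the 8 comparisons with a test (vertical axis). A dot marks a call at 1.3-fold with an unadjusted p under 0.05 and grey a gene not tested. KDM4C, the lncRNA, ACTG1P14 and ENSG00000224972 were called higher with hypoxia and lower with METTL4-si in both lines, and GLDC had the opposite sign with METTL4-si in FADU.

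By counts, 5 of the 13 tested window genes were called higher and 0 lower in hypoxic FADU cells, where 12.4% and 12.5% of all genes were called. In hypoxic BFTC909 cells it was 7 higher and 1 lower of 10, against 19.5% and 19.2%. The median log2 change of the window was 0.27 and 0.60, beside -0.03 and -0.02 over all tested genes. Among genes of chromosome 9 from 1 to 5.7 and 7.2 to 12 Mb, 7 of 33 were called higher and 1 lower in FADU, and 9 of 33 higher and 3 lower in BFTC909, with medians of 0.11 and 0.14. With METTL4-si, the window had 4 calls higher and 5 lower of 13 in FADU, against 15.2% and 16.8% of all genes and 0 and 5 of the 33 flanking genes. In BFTC909 it had 0 higher and 5 lower of 10, against 15.7% and 12.9% and 1 and 6 of 33. METTL4-OE gave 1 higher, the lncRNA, and 5 lower of 13, against 8.3% and 11.1% and 4 and 1 of 29. RP11-390F4.3-OE gave 2 higher and 1 lower of 13, a share near the 16.8% and 12.8% of all genes, with 6 and 2 of 29 in the flanks. Between METTL4-si hypoxia and normoxia there were 5 higher and 0 lower of 13 in FADU, against 12.1% and 15.2% and 8 and 2 of 33. In BFTC909 it was 3 higher and 1 lower of 10, near the 25.6% higher of all genes and the 11 higher and 3 lower of 33 in the flanks. The total of this comparison fell to 3 and 2 calls in FADU without Scr-si normoxia replicate 1 and METTL4-si replicate 2, and rose to 7 in BFTC909 without METTL4-si replicate 2. The window genes overlap in part, so they are not independent of each other.

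Among relatives of KDM4C, KDM4B was called in the direction of KDM4C with hypoxia and with METTL4-si in both lines. This gene encodes another demethylase of histone H3 lysine 9, and it had 22.7 and 21.2 in FADU normoxia, 50.1 and 56.97 in hypoxia, and 29.9 and 22.4 with METTL4-si. Its log2 change was 1.25 with hypoxia and -1.02 with METTL4-si in FADU, 1.22 and -0.66 in BFTC909, 0.41 with METTL4-OE and 1.07 with RP11-390F4.3-OE, each called. KDM4A was called in hypoxic BFTC909 (log2 0.63), and KDM4D in none of the 8 comparisons (log2 -0.14 to 0.36 by limma, with an unadjusted p of 0.0133 with RP11-390F4.3-OE at under 1.3-fold). KDM3A, a hypoxia-induced demethylase of another family, was called in the same directions in these 6 comparisons, from -1.53 with METTL4-si to 1.91 with hypoxia in FADU. KDM5C and KDM6B were called higher with RP11-390F4.3-OE (log2 0.40 and 0.48), where KDM4C had 0.35. KDM5C was under 1.3-fold without RP11-390F4.3-OE replicate 2 (0.37), as the call of RPS3AP54 also ended there (-0.40 against -0.44).

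The pattern of the lncRNA over the 12 knockdown libraries was compared with that of 13594 genes, on log2(value + 1) centred on the mean of each line. The 5 genes most like it were KMT2E-AS1 (Pearson r 0.960), RNU6-212P (0.937), EPHA1-AS1 (0.936), ENSG00000249476 (0.936) and EFEMP2 (0.935), none on chromosome 9. Several of these had low values, from 2.42 to 4.38 for KMT2E-AS1, 0.457 to 2.01 for RNU6-212P and 0.416 to 1.91 for EPHA1-AS1. KDM4C had r 0.869 and rank 94, ACTG1P14 0.845, ENSG00000224972 0.795, RIC1 0.775, KIAA2026 0.735, UHRF2 0.494, ERMP1 0.25, RANBP6 -0.03 and GLDC -0.09. KDM4C had r 0.909 (rank 553) in FADU alone and 0.836 (rank 739) in BFTC909 alone, and Spearman's rho over all 12 was 0.797 (rank 268). The libraries fall into 3 groups per line, so these coefficients describe group differences more than variation between cells, and no p is given.

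In the METTL4 mutant clones, each with 1 library in hypoxia beside 1 CRISPR control library, KDM4C was farther below the control than the lncRNA. The lncRNA had values of 9.98 in the control, 7.33 in clone 1 and 7.97 in clone 2 (329, 246 and 250 reads), log2 ratios of -0.40 and -0.29. Its exact 95% Poisson interval was 294 to 367 reads for the control, 216 to 279 for clone 1 and 220 to 283 for clone 2. KDM4C had 81.4, 42.1 and 41.5 (log2 -0.93 and -0.96), so that the lncRNA was 12.3% of KDM4C in the control library, 17.4% in clone 1 and 19.2% in clone 2. There is no replicate of the control and no test was made, and a difference between these libraries cannot be told apart from one between clones.

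The other neighbours were also lower in both clones. GLDC had 5.73, 2.62 and 3.35, UHRF2 81.8, 52.2 and 50.1, and RANBP6 61.9, 37.5 and 34.9. Their mean log2 ratios were -0.76, -0.67 and -0.76. Over all genes measured in these clones, 8.94% were 1.3-fold higher and 11.8% lower in both clones. In the window, 8 of 11 genes were lower in both clones and 0 higher (median -0.68), and the genes at 7.2 to 12 Mb had 3 of 4 lower (median -0.97). Genes at 1 to 5.7 Mb had 6 of 17 lower and 1 higher (median -0.30). On the rest of chromosome 9, 47 of 600 genes were lower and 108 higher (median 0.13), and over all 15719 genes of the table the median was 0.00. RP11-390F4.3 was not among the 8, since its ratio in clone 2 was less than 1.3-fold.

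**Figure D5:**
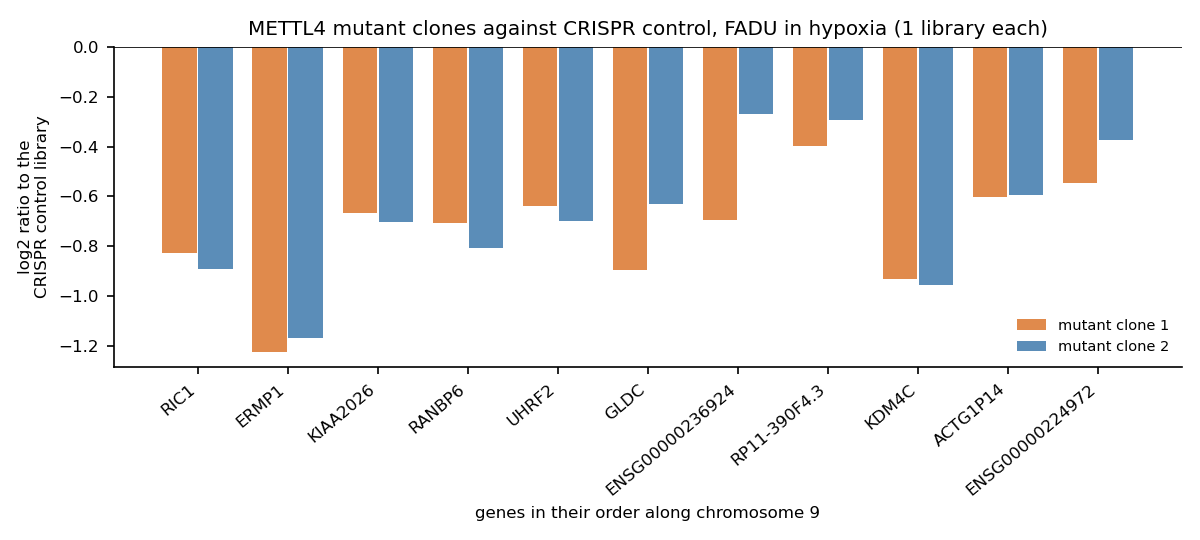
Log2 ratio of (value + 1) to the CRISPR control library (vertical axis) for genes of the window in their order along chromosome 9 (horizontal axis), with 1 bar for each METTL4 mutant clone of hypoxic FADU cells. All bars lie below 0, from -0.27 to -1.22, with the lncRNA at -0.40 and -0.29 beside KDM4C at -0.93 and -0.96.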

How the data were processed

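RNA-seq libraries (Kapa HyperPrep with RiboErase, paired-end reads on an Illumina NextSeq) were trimmed with Trim Galore, aligned to hg19 with HISAT2 and counted on genes with htseq-count by the authors. Versions, counting settings and annotation are not given in the sources used here. By default htseq-count drops reads that overlap exons of both genes, as in the shared exon. The authors deposited a normalized signal, TMM-normalized CPM from edgeR, in 4 tables. Their own comparison tables hold log2 fold changes, mean log2 expression, F statistics and p-values and were not used. In the mutant table rows that name no gene took 40.9% to 43.0% of a column, of which 2.17% to 2.57% were ambiguous reads, and were left out, and the genes listed there had at least 10 reads in every library.

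Gene identifiers were matched to GENCODE v44 lifted to GRCh37 (18887 of 19505, 16721 of 17232, 17763 of 18316 and 15308 of 15719), which may differ from the annotation of the authors. Groups came from the labels. The columns of RP11-390F4.3-OE were assigned by elimination, since the other column names of that table match the other labels. Whole reads were recovered from the steps between values (within 0.01 read, for 100% of the values checked). The highest counts were left out of this check.

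The test was limma 3.58.1 (R 4.3.3, eBayes with trend, two-sided) on log2(value + 1) for genes whose value reached 1 in 2 or more libraries, with all 6 libraries of a table in the fit, checked on simulated data. Fold changes are on the log2(value + 1) scale unless called a ratio of means. The same fit on differences from KDM4C tested unequal change. Its adjusted p-values depend on how many genes differ from KDM4C, and lie close to the unadjusted ones where most do. In the mutant table log2 ratios of (value + 1) were taken with no test. Named genes were all window genes, the listed partners and paralogs of the members, METTL4, 5 hypoxia genes and the 5 genes most like the lncRNA. KRT8, GATA3, PAX8, TFF1, COL1A2 and COL3A1 were named after their values were seen. The members and lists were chosen with earlier results of these data known. Alternatives were pseudocounts of 0.1 and 5, other filters, no trend, the compared groups alone, median centring, edgeR 4.0.16 on whole reads, adjusted p-values, a replicate block, each library left out and 3 alternatives added after seeing the data. Other steps ran in Python 3.11.15 (scipy 1.17.1, pandas 2.3.3, numpy 2.4.6), and plots were drawn with matplotlib 3.10.9.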

Additional observations from a re-analysis of the deposited data

Results flagged for a closer look

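For 3 results of neighbouring genes that were called in at least 1 line, the log2 changes of both lines had opposite signs under the same contrast. In 2 of them, the hypoxia comparisons, the FADU value passed no threshold. Changes called in neither line, such as that of RANBP6 with hypoxia, could also differ in sign and are not listed. The difference between lines was not tested, since the tables were normalized separately. GLDC had a log2 change with hypoxia of 0.15 in FADU and -0.70 in BFTC909. Between METTL4-si in hypoxia and Scr-si in normoxia, GLDC had a log2 change of 1.35 in FADU and -0.58 in BFTC909, where its values lay between 1.45 and 3.52. ERMP1 had a log2 change with hypoxia of -0.08 in FADU and 0.61 in BFTC909. No group had 4 or more libraries, so single libraries were not tested as outliers.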

How the results depend on the processing

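The calls of RP11-390F4.3 with hypoxia, METTL4-si and METTL4-si against normoxia in FADU and in both overexpression comparisons kept their direction and side of the threshold under every alternative run for them. In BFTC909 the lncRNA change was past no threshold with a pseudocount of 5 for hypoxia (0.37), and for METTL4-si with a pseudocount of 5 (-0.22), the compared groups alone (-0.62), edgeR (-1.04) or adjusted p (-0.62), with -0.98 to -0.27 on leaving out single libraries. For METTL4-si against normoxia it passed with the replicate block (0.48) and edgeR (1.41) and ranged from 0.13 to 0.84 on leaving out libraries. Relative to KDM4C, FADU values were 0.12 (hypoxia, no call) and 0.29 (METTL4-si, called) at a pseudocount of 5, 0.55 with the compared groups alone (METTL4-si against normoxia, no call), and 0.25 to 0.37 and 0.50 to 0.59 on leaving out libraries. In BFTC909 they were 0.96, -0.34 with a pseudocount of 0.1, -0.78, 0.51 and -0.26 with 5, 1.27 and -0.26 with edgeR, and -0.27 to 0.11, -0.32 to 0.58 and -0.40 to 0.50 on leaving out libraries. Signs of small changes turned on leaving out single libraries. RANBP6 ranged from -0.25 to 0.050 (FADU METTL4-si, 0.050 also without both libraries with raised breast markers), -0.10 to 0.20 (FADU METTL4-si against normoxia), -0.24 to 0.20 and -0.34 to 0.11 (BFTC909 METTL4-si and METTL4-si against normoxia), -0.043 to 0.0013 (METTL4-OE) and -0.052 to 0.016 (RP11-390F4.3-OE). UHRF2 ranged from -0.029 to 0.26 (FADU METTL4-si against normoxia), -0.10 to 0.30 (BFTC909 METTL4-si) and, relative to KDM4C, -0.097 to 0.11 (BFTC909 METTL4-si against normoxia), and was -0.030 with median centring in RP11-390F4.3-OE. GLDC ranged from -0.026 to 0.26 (BFTC909 METTL4-si). Window calls in FADU were 3, 5 and 2 where only genes averaging 5 or more were tested (hypoxia, METTL4-si, METTL4-si against normoxia), 5 and 2 with a pseudocount of 5 for the latter pair, 2 with adjusted p, and 2 to 6 on leaving out libraries. In BFTC909 they were 4 and 2 under that filter, where the lncRNA has no value, and 3 to 7 for METTL4-si against normoxia without single libraries. They were 3 in METTL4-OE under that filter and 3 with a pseudocount of 5. The mutant ratio of the lncRNA was -0.24 with a pseudocount of 5. Median centring moved the higher and lower calls of all genes from 2894 and 2854 to 3512 and 2241 (BFTC909 hypoxia), from 2339 and 1922 to 1771 and 2751 (BFTC909 METTL4-si) and from 2630 and 2007 to 2024 and 2918 (RP11-390F4.3-OE). The causes were not tested. The replicate numbers are not taken to pair libraries: deviations correlated at 0.648 between FADU normoxia and METTL4-si and from -0.07 to 0.15 elsewhere, and the replicate block changed no call of the other results. BFTC909 read counts of 8 to 47 limit the lncRNA there.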

Other observations

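In 10-Mb steps along chromosome 9, chosen after the values of the window were seen, the median log2 ratio of the mutant clones to CRISPR control was -0.51 over 36 genes at 0 to 10 Mb and -0.51 over 21 genes at 10 to 20 Mb. It was -0.15 over 23 genes at 20 to 30 Mb and 0.07 over 87 genes at 30 to 40 Mb, and between 0.04 and 0.33 in each later step. In clone 1 the medians of the first 2 steps were -0.53 and -0.41, and in clone 2 they were -0.50 and -0.60. RP11-390F4.3 and its neighbours lie in the first of these steps.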
